A study of Mus musculus with 2 samples.

Results

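The respiratory complexes II to V of the mitochondrial inner membrane were examined at the RNA level in mouse brown fat. Members were taken by their name in the array files: Sdha, Sdhb, Sdhc, Sdhd, Cyc1, Cycs, and every name beginning with Uqcr, Atp5, Cox with a digit from 4 to 8, or Cox10 to Cox19. The rule took 44 of 41534 probe spots and 38 of 38354 gene names. None was named Cox10 to Cox19. The spots comprised 4 complex II genes, 5 of complex III, cytochrome c itself, 15 of complex IV and 13 of complex V. Cox6c had a value in the scanner software's ratios only, so 37 genes and 43 probes carried normalised values. All 44 spots were well above background in both dyes on both arrays.

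Interscapular brown fat came from male C57BL/6 mice aged 2 to 3 months and collected near circadian time 20, with 4 mice named for each genotype. Wild-type mice (WT) were set against double-knockout mice (DKO) whose missing genes include Rora, which encodes a nuclear receptor that binds DNA beside clock and metabolic genes. Labelled RNA of both genotypes was mixed on 2 whole-genome arrays, DKO carrying Cy5 on one of them and Cy3 on the other. The sources used here do not say whether the RNA of the 4 mice was pooled or whether both arrays received the same extracts. The arrays were therefore treated as a dye swap of 1 preparation per genotype, and no test was possible.

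Complex II (succinate dehydrogenase) passes electrons from succinate to ubiquinone, complex III passes them from ubiquinol to cytochrome c, and complex IV (cytochrome c oxidase) passes them from cytochrome c to oxygen. Complexes III and IV pump protons, and complex V (ATP synthase) uses the returning protons to make ATP. Brown fat is rich in mitochondria, and its uncoupling protein Ucp1 lets protons return without ATP synthesis, so that oxidation yields heat. Several cytochrome c oxidase subunits exist as a ubiquitous isoform and a second isoform that is prominent in heart, skeletal muscle or brown fat.

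Each value below is a log2 ratio of DKO over WT, so that 1 is 2-fold higher in DKO. Means are given with the SD of the 2 arrays (n = 2), which holds dye and measurement error and was not taken as a spread between animals. To be called, a gene needed a mean of 2-fold or more, with 1.5-fold or more in that direction on each array. A looser rule asked for a mean of at least 1.5-fold and at least 1.2-fold on each array.

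Rora read −0.38 ± 0.04 and −0.47 ± 0.10 at its 2 probes, below 0 on each array. Average log2 intensities there were 6.64 and 6.43, a range where the offset added to the signals shrinks ratios. The scanner software's own ratios had larger means at these probes, −0.96 and −1.52. The sources used here do not say whether these probes lie in the deleted part. Of 12 listed brown adipocyte genes, 10 matched a probe and all 10 were well above background in at least 1 genotype, Ucp1 among them. All 25 matched skeletal muscle markers and all 6 matched white adipocyte markers were so too. Passing background therefore does not mark out the tissue. Ucp1 had an average log2 intensity of 14.78. Median spot signals were 107 to 130 over local backgrounds of 57 to 72, and 77.6% to 85.4% of probe spots were well above background. The members had median signals of 5953 to 10886.

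No member was called in either direction. Among 30441 measured genes the rule called 0.0986% higher and 0.023% lower in DKO. Cox6a2, a muscle-type subunit of cytochrome c oxidase, was the only member past 1.5-fold (0.342% of measured genes were past it higher and 0.237% lower). It lies just inside that limit, with a mean of 0.59 against a limit of 0.585, and the next member, Cyc1, lies outside it at 0.36. Cox6a2 and Cyc1 were also the only members at least 1.2-fold higher on each array, against 0.89% of measured genes, and no member was 1.2-fold lower on each array, against 0.726%. Member means ran from −0.17 for Cox7b to 0.59 for Cox6a2, with 25 of 37 above 0 and a median of 0.048. All measured genes had 15756 of 30441 means above 0 and a median of 0.00.

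Most members changed sign with the dyes. With DKO in Cy5, 27 of 37 members were above 0, and with the dyes reversed 18 were. Among 30441 measured genes, 15917 were above 0 with DKO in Cy5 and 15023 with DKO in Cy3. The sign was positive on both arrays for 11 members (19.4% of measured genes) and negative on both for 3 (17.8% of measured genes), and it differed between the arrays for 23 (62.8%). Of those 23, 16 were above 0 with DKO in Cy5 and 7 with DKO in Cy3. The 3 below 0 on both arrays include Cox6a1, which was saturated in Cy5 on both arrays and has no settled sign. By the scanner software's ratios, 2 members were below 0 on both. The SD exceeded the size of the mean for 29 of 37 members. In 29 of 37 members the average log2 intensity was 11 or more. Among all 667 measured genes that bright, the 2-fold rule called 0.9% higher and 0% lower, 2.7% were past 1.5-fold higher and 1.95% lower, and 5.7% and 4.5% were at least 1.2-fold higher or lower on each array. Of these bright genes, 18.3% were above 0 on both arrays, 21.7% below 0 on both, and 60% differed in sign, shares read after the data had been seen. Across the 37 members, Pearson's r between the arrays was −0.21, as a description only, since the arrays may share extracts and differ in dye. Over all measured genes r was −0.02, and over the 667 bright ones 0.11. Spearman's rho was −0.26 for the members, −0.29 for all measured genes and −0.11 for the bright ones.

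**Figure D1:**
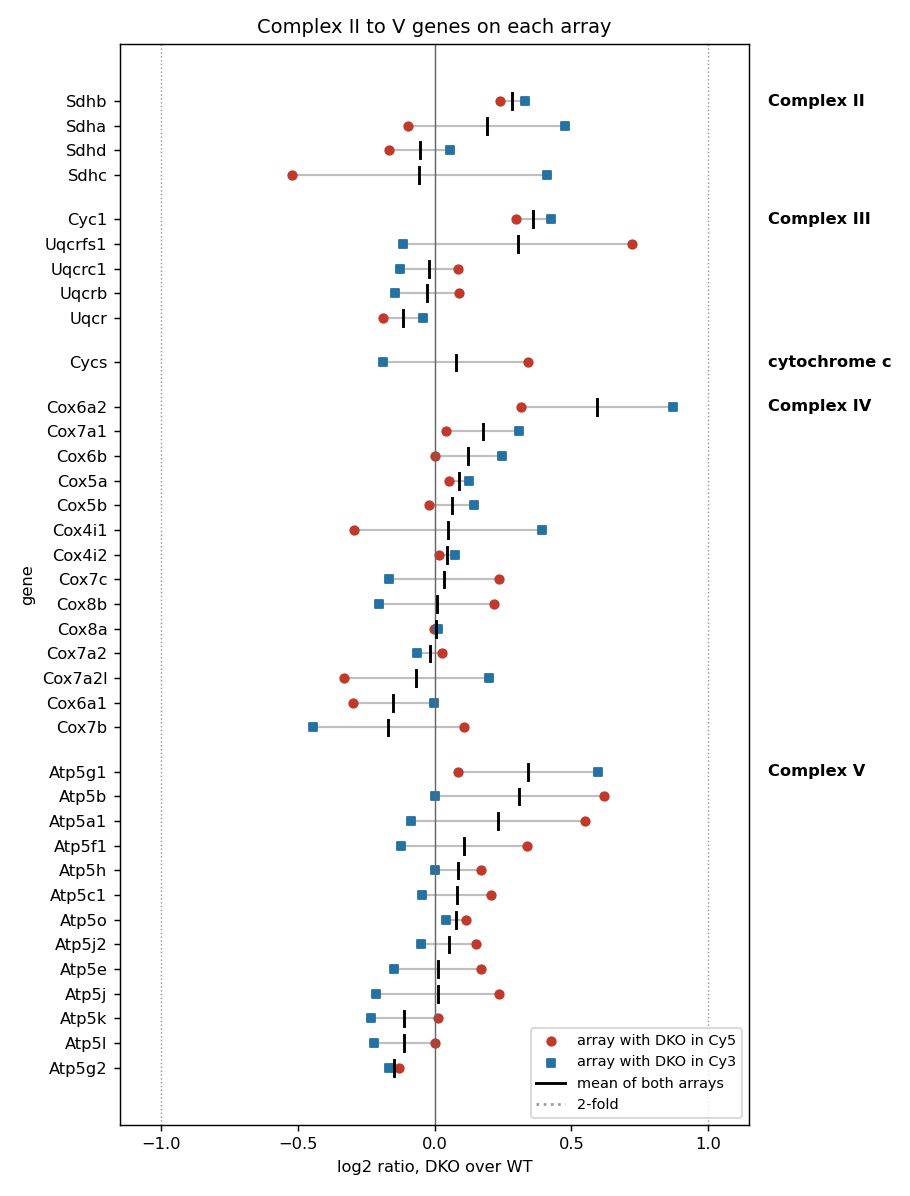
Log2 ratio of DKO over WT (horizontal axis) for the 37 member genes by complex, with a circle for the array with DKO in Cy5, a square for the array with DKO in Cy3, a black bar for their mean and dotted lines at 2-fold. No mean lies past a dotted line, and the circle and square fall on opposite sides of 0 for 23 genes.

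**Figure D2:**
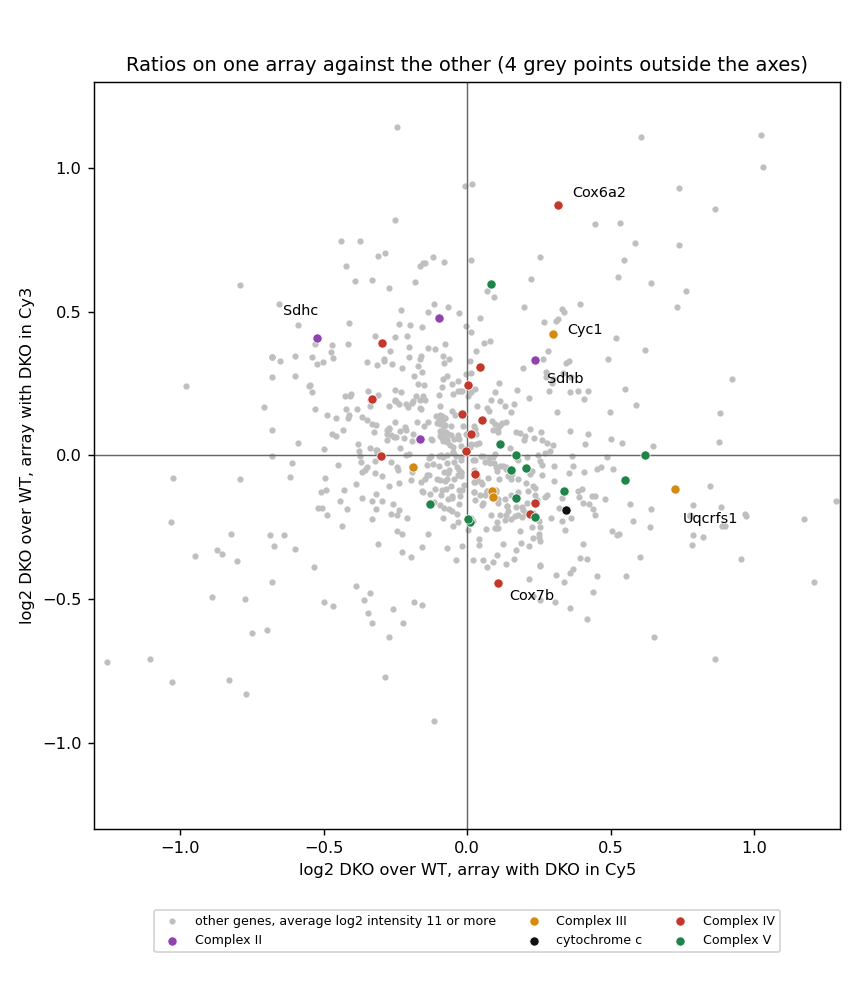
Log2 ratio on the array with DKO in Cy3 against that on the array with DKO in Cy5, for the members by complex and, in grey, 638 other measured genes of average log2 intensity 11 or more, with 4 grey points outside the axes. Cox6a2, Cyc1 and Sdhb lie in the upper right part, where both arrays are above 0, while Sdhc and Uqcrfs1 lie far out with opposite signs.

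Complex II is the only respiratory complex that is also a citric acid cycle enzyme. Of its 4 genes, Sdhb alone was above 0 on both arrays. Sdhb, the iron-sulfur subunit that hands electrons on to ubiquinone, had normalised log2 signals of 12.82 in DKO and 12.58 in WT with DKO in Cy5, and 13.09 and 12.76 with DKO in Cy3. DKO was the higher on each array, and the ratios of 0.24 and 0.33 gave a mean of 0.28 ± 0.07, or 1.22-fold.

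Sdha, the flavoprotein that oxidises succinate, read −0.10 with DKO in Cy5 and 0.48 with DKO in Cy3, and its mean was 0.19 ± 0.41. A pair of further probes, described in the file as Sdha but named otherwise there, had the same pattern: −0.07 and 0.72 at one, −0.05 and 0.24 at the other. The membrane anchors were split as well. Sdhc read −0.52 and 0.41, the widest gap between arrays of any member, with a mean of −0.06 ± 0.66. Sdhd read −0.17 and 0.06, with a mean of −0.05 ± 0.16. Thus 1 of 4 complex II genes was above 0 on one array and 4 of 4 on the other, with medians of −0.13 and 0.37.

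Among complex III members the genes for subunits that carry redox centres, Cyc1 and Uqcrfs1, had higher means than those for structural subunits. Of this pair only Cyc1 was above 0 on both arrays. Cyc1 encodes cytochrome c1, which passes electrons to cytochrome c. Its normalised log2 signals were 12.29 in DKO and 11.99 in WT with DKO in Cy5, and 12.41 and 11.99 with DKO in Cy3. DKO was higher on both arrays by similar amounts, 0.30 and 0.42, and the mean was 0.36 ± 0.09, or 1.28-fold. Uqcrfs1, the Rieske iron-sulfur protein, had a mean of 0.30 ± 0.59 that rested on the array with DKO in Cy5, with 0.72 there and −0.12 on the other.

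The structural genes of complex III lay near 0. Uqcrc1, a core protein, read 0.09 and −0.13 (mean −0.02 ± 0.15). Uqcrb read 0.09 and −0.15 (mean −0.03 ± 0.17), and its second probe gave −0.06 ± 0.29. Uqcr, the small subunit now named Uqcr11, was below 0 on both arrays at −0.19 and −0.04 (mean −0.12 ± 0.11). Another small subunit, Uqcrh, carries a clone name in the files and so fell outside the name rule. It read 0.10 ± 0.23.

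Cytochrome c, the mobile carrier between complexes III and IV, was read by a pair of Cycs probes. The brighter gave 0.34 and −0.19, with a mean of 0.08 ± 0.38, and the other gave 0.33 and −0.15, with a mean of 0.09 ± 0.33. Each probe was thus higher in whichever genotype carried Cy5, and the probes gave nearly the same values. A further probe described as Cycs read 0.25 and −0.02, a mean of 0.12 ± 0.19. Cyct, the testis form, read 0.06 ± 0.02 at an average log2 intensity of 6.61, where the offset added to the signals shrinks ratios.

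Complex IV genes were read by isoform, since the subunits IV, VIa, VIIa and VIII each have a tissue-restricted version. Cox6a2 encodes the heart and skeletal muscle form of subunit VIa. Its normalised log2 signals were 9.31 in DKO and 9.0 in WT with DKO in Cy5, and 9.40 and 8.53 with DKO in Cy3. DKO was higher on both arrays, but the ratios of 0.31 and 0.87 were far apart, and the mean was 0.59 ± 0.39, or 1.51-fold. The scanner software's own ratios had the mean at 0.66.

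The ubiquitous partner Cox6a1 was saturated in Cy5 on both arrays. Its ratios of −0.30 with DKO in Cy5 and −0.00 with DKO in Cy3 are therefore bounds, a lower one on the first of these arrays and an upper one on the other. Its mean of −0.15 ± 0.21 has no settled sign. The difference Cox6a2 minus Cox6a1 was 0.61 and 0.87 on the arrays, and since Cox6a1 is a bound, so is each difference: at most 0.61 with DKO in Cy5 and at least 0.87 with DKO in Cy3.

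Most of the listed skeletal muscle transcripts also read higher in DKO. Of 34 listed skeletal muscle markers, 25 matched a probe and all 25 were well above background in at least 1 genotype. Their median was 0.27, from 0.14 with DKO in Cy5 and 0.56 with DKO in Cy3, the same order as for Cox6a2. In that list 16 were above 0 on both arrays (19.4% of measured genes) and 1 below (17.8%). Past 1.5-fold higher were 10 (0.342% of measured genes), and 1, Eno3 (1.21 ± 0.33), was called higher (0.0986%). The list was chosen with earlier results of these data known. The brightest of them, Tnnc2 and Tnni2, encode fast troponins and read 0.61 ± 0.10 and 0.63 ± 0.25. Of the 25 means, 23 were above 0 and 2 below. Those below were Myh7 (−0.31 ± 0.16), lower on both arrays, and Tnnt1 (−0.29 ± 0.61). Tnni1, Tnnc1 and Myl3 read 0.03 ± 0.06, 0.01 ± 0.16 and 0.03 ± 0.14. The normalised signal summed over all 25 markers was 18332 in WT and 23514 in DKO with DKO in Cy5. With the dyes reversed the sums were 16061 and 26020. The part of muscle RNA in the Cox6a2 ratio was not tested, and in RNA of whole tissue, more cells of a type and more RNA per cell cannot be told apart.

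Cox7a1, the heart and muscle form of subunit VIIa and an abundant transcript of brown fat, had normalised log2 signals of 14.78 in DKO and 14.74 in WT with DKO in Cy5, and 14.85 and 14.54 with DKO in Cy3. DKO was the higher on both arrays, by 0.04 and 0.31, with a mean of 0.18 ± 0.19. The ubiquitous Cox7a2 read 0.03 and −0.06, with a mean of −0.02 ± 0.07. The difference Cox7a1 minus Cox7a2 was 0.02 and 0.37, and its mean of 0.19 ± 0.25 was smaller than the SD.

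Subunit VIII gave the smallest difference between arrays of any member for its ubiquitous form, and opposite signs for its partner. Cox8a, the ubiquitous gene, had signals of 14.69 in both genotypes on one array and 14.67 and 14.66 on the other, with a mean ratio of 0.01 ± 0.01. Cox8b, the heart, muscle and brown fat form, had 14.77 in DKO and 14.55 in WT with DKO in Cy5, and 14.47 and 14.67 with DKO in Cy3. Its ratios of 0.22 and −0.20 cancelled to 0.01 ± 0.30. The difference Cox8b minus Cox8a was 0.00 ± 0.31.

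Subunit IV is where ATP and ADP regulate the oxidase, and its isoform genes gave means near 0. The ubiquitous Cox4i1 had signals of 14.06 in DKO and 14.36 in WT with DKO in Cy5, and 14.34 and 13.95 with DKO in Cy3, so that WT was higher on one array and DKO on the other (mean 0.05 ± 0.49). Cox4i2, the lung form, read 0.01 and 0.08 (mean 0.04 ± 0.04) at an average log2 intensity of 6.47, where the offset added to the signals shrinks ratios. Over the 3 heart and muscle isoforms the median of the means was 0.18, and over the 5 ubiquitous ones (Cox4i1, Cox6a1, Cox6b, Cox7a2 and Cox8a) it was 0.01, with 1 of 3 and 0 of 5 past 1.5-fold.

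**Figure D3:**
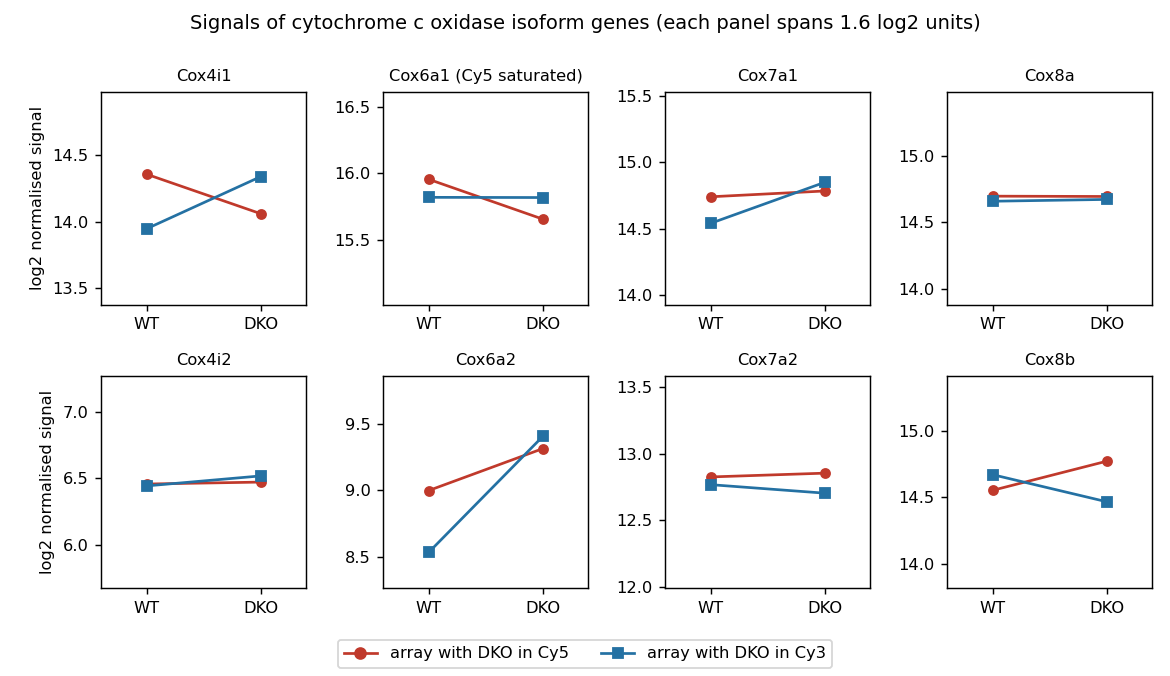
Normalised log2 signal in WT and DKO (horizontal positions) for 8 cytochrome c oxidase isoform genes, with a line for each array and the same span of signal in every panel. Both lines slope up for Cox6a2 and Cox7a1, and slightly for Cox4i2. They slope in opposite directions for Cox4i1 and Cox8b, and slightly so for Cox7a2. The lines are nearly flat for Cox8a, while Cox6a1 is saturated in Cy5.

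The remaining subunits of complex IV had means between −0.17 and 0.12. Cox5a and Cox5b, which face the matrix, read 0.09 ± 0.05 and 0.06 ± 0.12. Cox6b (now Cox6b1), a subunit at the docking side for cytochrome c, read 0.00 and 0.24, a mean of 0.12 ± 0.17. Cox7b, a small membrane subunit, had the lowest mean of all members at −0.17 ± 0.39, from signals of 12.81 in DKO and 12.70 in WT on one array and 12.40 and 12.85 on the other. DKO was thus higher on one array and lower on the other, and a further probe described as Cox7b read −0.11 ± 0.10. Cox7c read 0.04 ± 0.28, and a further probe described as Cox7c read −0.08 ± 0.23. Cox7a2l, a factor of supercomplexes that resembles subunit VIIa, read −0.33 and 0.20 (mean −0.07 ± 0.37). The Cox6c spot was marked as non-uniform in Cy3 on both arrays and left out. The scanner software's ratios for Cox6c were 0.30 and −0.29, and their mean was 0.01. Over the 14 complex IV genes with values, 9 were above 0 on each array, though not the same 9, since 5 were above 0 on both.

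Complex V ratios differed in sign between the arrays for 8 of 13 genes, where 62.8% of all measured genes did so. All 8 were above 0 with DKO in Cy5. Among all measured genes that differed, 10013 were above 0 with DKO in Cy5 and 9119 with DKO in Cy3. With DKO in Cy5, 12 of 13 complex V genes were above 0 and the median was 0.17. With DKO in Cy3, 4 of 13 were above 0 and the median was −0.09. Averaging over the dyes left a median of 0.08, with 10 of 13 means above 0.

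The catalytic core is an F1 hexamer of alpha and beta subunits. Atp5b, the beta subunit, had signals of 15.40 in DKO and 14.78 in WT with DKO in Cy5, but 15.12 in both genotypes with DKO in Cy3, a mean of 0.31 ± 0.44. Its second probe showed the reverse, 0.11 on that first array and 0.66 on the other, with a mean of 0.39 ± 0.39. Of a further pair of probes described as Atp5b, one read 0.28 and 0.36 (mean 0.32 ± 0.06) and the other −0.10 and 0.87 (mean 0.39 ± 0.69). All 4 Atp5b means thus lay between 0.31 and 0.39, while the array that gave the larger ratio differed between probes, and none reached 1.5-fold.

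Atp5a1, the alpha subunit, read 0.55 and −0.09 (mean 0.23 ± 0.45), and its second probe gave 0.11 and 0.06 (mean 0.08 ± 0.03). In the central stalk, which turns inside the hexamer, Atp5c1 (gamma) read 0.08 ± 0.18 and Atp5e (epsilon) 0.01 ± 0.22. The 4 genes of the core and central stalk were all above 0 with DKO in Cy5 (median 0.38), and 1 of 4, Atp5b, was above 0 with DKO in Cy3 (median −0.06).

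The peripheral stalk, which holds the hexamer still, had means from 0.01 to 0.11. Atp5o (OSCP) and Atp5h (subunit d) were above 0 on both arrays, at 0.08 ± 0.05 and 0.09 ± 0.12, although Atp5h read 0.00 on one of them and a further probe described as Atp5h read 0.40 and −0.12. Atp5f1 (subunit b, now Atp5pb) read 0.11 ± 0.33 and Atp5j (F6) 0.01 ± 0.32. The second Atp5f1 probe read 0.02 ± 0.02, and a further probe described as Atp5f1 was above 0 on both arrays at 0.10 and 0.33 (mean 0.22 ± 0.17).

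In the membrane part, Atp5g1 and Atp5g2 encode the same mature c subunit of the rotor ring from separate genes. Atp5g1 had signals of 8.45 in DKO and 8.37 in WT with DKO in Cy5, and 8.80 and 8.21 with DKO in Cy3. DKO was higher on both, with a mean of 0.34 ± 0.36. Its second probe was below 0 on both arrays, at −0.04 and −0.11, so the Atp5g1 probes disagreed in sign. Atp5g2 was below 0 on both arrays, with signals of 7.42 in DKO and 7.55 in WT on one and 7.37 and 7.54 on the other, a mean of −0.15 ± 0.03. Atp5k (subunit e) and Atp5l (subunit g), which sit where ATP synthase forms dimers, read −0.11 ± 0.17 and −0.11 ± 0.16, and Atp5j2 (subunit f) read 0.05 ± 0.14.

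Members past 1.5-fold on 1 array alone differed between the arrays. On the array with DKO in Cy5, 2 members had a ratio of at least 1.5-fold, Uqcrfs1 (0.72) and Atp5b (0.62). On the array with DKO in Cy3, 2 did, Cox6a2 (0.87) and Atp5g1 (0.60). The absolute difference between a member's ratios on the arrays ran from 0.02 to 0.93, with a median of 0.25.

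Other genes of these complexes were read from a list of 38 assembly factors, inhibitors, mitochondrially encoded subunits and subunits outside the name rule, of which 22 were measured. None was called or past 1.5-fold. The median was 0.013, with 6 above 0 on both arrays and 2 below. Lrpprc, which stabilises mitochondrial messenger RNA, was below 0 on both arrays (−0.22 ± 0.21). Atpif1, the inhibitor of ATP hydrolysis by complex V, was also below 0 on both at its brighter probe (−0.09 ± 0.01) and read 0.03 ± 0.07 at the other. Tmem70, an assembly factor of complex V, was above 0 on both (0.20 ± 0.16). Surf1, an assembly factor of complex IV, read 0.11 ± 0.43, and the brightest of its complex IV list, Ndufa4 and Coa5, read −0.09 ± 0.63 and −0.08 ± 0.26. Ndufa4 is now counted as a subunit of complex IV. The complex II assembly factors Sdhaf4 and Sdhaf2 read 0.12 ± 0.60 and −0.05 ± 0.55, and those of complex III, Uqcc2 and Uqcc1, read 0.05 ± 0.05 and −0.17 ± 0.36. The small complex V subunits Usmg5 and Mp68 read −0.12 ± 0.54 and 0.08 ± 0.13. Hccs, which attaches heme to cytochrome c, read 0.00 ± 0.12. Cox10, which makes heme for the oxidase, carried a clone name in the files and read 0.02 ± 0.03. Its average log2 intensity was 6.26, where the offset added to the signals shrinks ratios, and the software's mean was 0.16. Lyrm7, Coa6, Taco1 and Sco1, among the 22, lay at 6.30 to 6.68, which limits the median too. The assembly factor Cox16, also under a clone name, read 0.11 ± 0.52 at its brightest probe but −0.23 ± 0.42 and −0.12 ± 0.18 at the others. The testis isoforms Cox6b2, at 0.01 ± 0.11, and Cox8c, not well above background, were also listed under other names. None of the 6 mitochondrially encoded genes on the list matched a probe by name, and a probe described as cytochrome c oxidase subunit II was saturated and read −0.68 and 0.34.

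The brown adipocyte list differed in level from the complexes on the same arrays, by description only. It was chosen with earlier results of these data known, so its level is no independent comparison. The 10 measured genes of the list had a median of 0.50. Of them, 4 were past 1.5-fold higher (0.342% of measured genes) and 2 were called higher (0.0986% of measured genes). The called genes were Dio2, which activates thyroid hormone (1.89 ± 0.32), and Elovl3, a fatty acid elongase (1.02 ± 0.02). Ucp1 read 0.74 and 0.73, a mean of 0.73 ± 0.00, and Fabp3, also past 1.5-fold, read 0.84 ± 0.14. Ppargc1a, a coactivator of mitochondrial genes, read 0.54 ± 0.04 at its brighter probe, short of 1.5-fold, and 0.14 ± 0.07 at the other. Cidea, a lipid droplet protein, was saturated at −0.14. Cpt1b (−0.05 ± 0.37) and Ebf2 (−0.05 ± 0.10) also had means below 0, while 7 of the 10 brown adipocyte genes had means above 0. Of 9 white adipocyte markers 6 were measured, with a median of −0.01. Lep, the leptin gene, was called lower (−1.08 ± 0.42), while Retn, the resistin gene, read 0.08 ± 0.02. Igf1 was below 0 on both arrays (−0.56 ± 0.07 at its brightest probe), and Agt was above 0 on both (0.30 ± 0.07). In the same preparations the complex II to V median was 0.048 and no member was called.

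**Figure D4:**
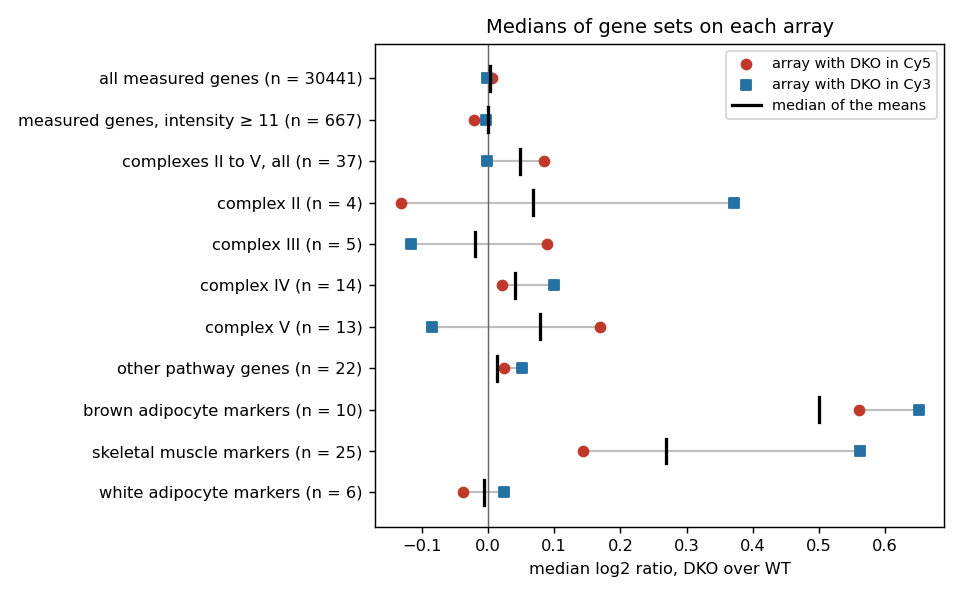
Median log2 ratio of DKO over WT (horizontal axis) for each gene set with DKO in Cy5 (circle) and with DKO in Cy3 (square), with a black bar for the median of the means and the number of measured genes in brackets. The complexes lie between −0.13 and 0.37 on single arrays with circle and square on opposite sides of 0 for complexes II, III and V, and the brown adipocyte median is 0.50. The marker lists were chosen with earlier results of these data known.

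Promoters were read to show what the isoform genes share in sequence, since nuclear genes for respiratory subunits are known targets of the factors NRF1 and GABP, the latter of the ETS family, and RORs bind a nuclear receptor half-site after an A/T-rich stretch. RefSeq sequence of build GRCm38.p6 gave 32 windows of 250 bases before the start for 30 of the 38 genes. Both strands were searched, matches of one motif at different bases were counted separately, and the half-site lies within the longer ROR motif that ends in AGGTCA. The NRF1 motif (GCGCA, any base, then GCGC) was in 7 of 32 windows (21.9%), where 3.74% of all 32851 windows held it. The 7 belonged to Sdha, Sdhd, Cox6a1, Atp5c1, Atp5g2, Atp5h and Atp5k. The ETS motif CCGGAAG was in 8 (25.0%), against 6.91%, with Cox6a1, Sdhd and Atp5h holding both.

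The half-site AGGTCA was in 4 member windows (12.5%), those of Sdhb, Cox5b, Cox7b and Atp5l, against 14.0% of all windows. The longer ROR motifs (an A, any 2 bases, then TAGGTCA or TGGGTCA) were in none, against 0.609% and 0.743%. CAGCTG, an E-box bound by muscle regulatory factors, was in the windows of Cox8b and Atp5b (6.25%, against 13.0%), and TATAAA was in that of Atp5l alone (3.12%, against 12.4%). The genes with a half-site had means of 0.28 (Sdhb), 0.06 (Cox5b), −0.17 (Cox7b) and −0.11 (Atp5l). A match describes letters in these windows and shows no binding.

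The 6 windows below are those of the measured isoform partners with an entry and of Sdhb, written from 5′ to 3′ on the gene's strand and ending at the base before the start. Capitals mark a match. In Cox6a1 the NRF1 matches begin 162 and 117 bases before the start and the ETS match, in reverse orientation, 16 bases before it. In Cox8b the E-box begins 19 bases before the start, and in Sdhb the half-site begins 86 bases before it. The windows of Cox7a1, Cox7a2 and Cox8a held none of the motifs searched.
Cox6a1 promoter, chr5:115348959-115349208, minus strand: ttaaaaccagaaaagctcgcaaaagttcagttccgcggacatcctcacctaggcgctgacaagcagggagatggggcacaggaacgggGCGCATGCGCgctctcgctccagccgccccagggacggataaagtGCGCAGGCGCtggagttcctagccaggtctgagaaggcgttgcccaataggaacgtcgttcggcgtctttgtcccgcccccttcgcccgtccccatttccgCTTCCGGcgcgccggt
Cox7a1 promoter, chr7:30183921-30184170, plus strand: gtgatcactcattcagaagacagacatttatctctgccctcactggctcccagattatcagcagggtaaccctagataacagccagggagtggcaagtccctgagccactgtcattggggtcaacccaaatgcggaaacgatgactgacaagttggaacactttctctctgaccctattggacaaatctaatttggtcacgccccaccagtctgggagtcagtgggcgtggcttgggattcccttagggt
Cox7a2 promoter, chr9:79759854-79760103, minus strand: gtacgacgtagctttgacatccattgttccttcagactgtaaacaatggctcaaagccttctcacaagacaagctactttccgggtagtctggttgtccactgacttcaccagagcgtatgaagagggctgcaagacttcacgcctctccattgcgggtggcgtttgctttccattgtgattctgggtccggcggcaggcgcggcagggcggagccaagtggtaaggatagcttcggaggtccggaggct
Cox8a promoter, chr19:7217617-7217866, minus strand: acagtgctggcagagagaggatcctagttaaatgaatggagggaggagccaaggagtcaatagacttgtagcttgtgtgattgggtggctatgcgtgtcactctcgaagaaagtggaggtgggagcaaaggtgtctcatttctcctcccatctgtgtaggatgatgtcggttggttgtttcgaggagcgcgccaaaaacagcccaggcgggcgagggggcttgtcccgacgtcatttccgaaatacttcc
Cox8b promoter, chr7:140900447-140900696, minus strand: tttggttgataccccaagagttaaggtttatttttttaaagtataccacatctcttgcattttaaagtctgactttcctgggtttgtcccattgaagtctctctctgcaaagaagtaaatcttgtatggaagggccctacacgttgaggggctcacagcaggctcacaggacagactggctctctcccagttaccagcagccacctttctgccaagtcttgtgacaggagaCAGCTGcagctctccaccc
Sdhb promoter, chr4:140961021-140961270, plus strand: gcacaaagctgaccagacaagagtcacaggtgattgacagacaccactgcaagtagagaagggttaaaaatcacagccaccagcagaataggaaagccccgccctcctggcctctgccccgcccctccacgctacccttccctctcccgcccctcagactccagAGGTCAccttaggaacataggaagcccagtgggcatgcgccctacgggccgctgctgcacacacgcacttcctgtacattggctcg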

How the data were processed

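RNA of both genotypes was hybridised on 2 Agilent arrays with reversed dyes, 750 ng of labelled cRNA per dye for 17 h, per the labels' protocols. The labels give the starting RNA in 2 different amounts. Images were read by the authors with Agilent Feature Extraction 7.5, as stated in the labels. The authors' spot files give intensity (mean, median and background signals), a log10 ratio of red over green and a p-value from the software, per the file headers. The deposited value table of the series gives log2 ratios, equal to the scanner files' red over green within 0.001 for 40962 values of 41001 and 41101 values of 41141, with a median of 0 in each column. A step in Rosetta Resolver is named in the labels without detail.

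Mean signals were corrected by normexp with an offset of 50 and normalised by loess within each array (limma 3.58.1, R 4.3.3). The ratio was turned to DKO over WT on both arrays. Outlier spots were left out and saturated spots kept. A gene is a name in the files, read by its brightest measured probe, and measured means well above background (2.6 SDs per the file headers) in a genotype on both arrays. Of 43 member probes, 33 matched RefSeq by accession, 9 by symbol and 1 by an older symbol. The calling rule was tested on simulated data. The number of arrays limits the precision. The rule for named genes took isoform families, Sdha to Sdhd, Cyc1, Cycs, members past a size limit, the extremes of each complex, genes whose probes differ in sign and, in other lists, called genes and the 2 brightest. The remaining names were picked with values in view. Members and lists were chosen with earlier results of these data known. One deleted gene is not reported here. Alternatives covered the offset, the signal, the normalisation, filters, probes, thresholds, the deposited ratios and single arrays. Python 3.11.15 was used with pandas 2.3.3 and numpy 2.4.6.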

Additional observations from a re-analysis of the deposited data

How the results depend on the processing

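No member was called under any alternative run, including the software's p-value and each array alone. A 3-fold threshold called none either, as it must where the 2-fold rule called none. Centring each array on its median in place of loess moved the median of all measured genes to 0.043, of genes of average log2 intensity 11 or more to 0.15 and of the members to 0.20. Under it the complex III median was 0.13, the complex IV median 0.17 and the median of the other pathway genes 0.0654, and 0 members were below 0 on both arrays. The members' median minus that of the genes of average log2 intensity 11 or more, which 29 of 37 members are, was 0.057 under it and 0.048 under loess. With median signals 0 members were past 1.5-fold, Cox6a2 reading 0.57. For the other pathway genes, the median was 0.0483 from the software's ratios and also 0.0483 from the deposited value table. On each array alone, members past 1.5-fold numbered 2 and 2, members above 0 numbered 18 and 27, members below 0 numbered 19 and 10, the complex IV median was 0.0999 without replicate 1 and 0.0215 without replicate 2, and the median of the other pathway genes was 0.0505 and 0.0242. Replicate 1 is the array with DKO in Cy5. Over 9 settings that use both arrays, 321 of 333 member values kept their sign and 12, in 11 genes, turned, 10 of them under median centring. Leaving out Cox6a1, or keeping Cox6c with its deposited ratio, both chosen after seeing the data, left the median of all members between 0.046 and 0.049. No paired analysis was possible because each genotype had 1 replicate. Signals of Cox4i2 and Atp5g2 lay near the offset, which limits their ratios, as did those of Cyct, Cox10 and some other pathway genes. The planned median of complex IV assembly members has no value, since no name from Cox10 to Cox19 was on the arrays.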
